A study of Mus musculus with 32 samples.

Results

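The genes of the proteasome symbol family were described in sorted mouse donor T cells before and after bone marrow transplantation with and without graft-versus-host disease. Members were all gene symbols in the expression table that start with Psm, a letter from a to g and a number, with pseudogene symbols left out. They were 51 of 16741 genes. Of these, 5 make up the immunoproteasome as defined here (Psmb8, Psmb9, Psmb10, Psme1 and Psme2), 44 are other proteasome genes, and 2 share the symbol but do not encode subunits (Psmc3ip, a cofactor of meiotic recombination, and Psme3ip1, a partner of the activator Psme3). The 44 comprise 7 alpha ring genes, 3 constitutive catalytic and 4 further beta ring genes, 6 ATPases and 11 other subunits of the 19S cap, 7 assembly chaperones, 2 other activators, 1 inhibitor, 1 near-identical copy of Psme2 and 2 subunits known from other tissues.

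The cells came from C57Bl6 donors and were given to Balb/c recipients (allogeneic, differing at the major histocompatibility genes) or to syngeneic recipients, and were sorted from spleen and lymph nodes. CD4 conventional T cells gave 2 libraries at day 0, before transplantation. After it they gave 3 libraries in the syngeneic group and 4 in the allogeneic group. A further 4 came from allogeneic hosts that also received regulatory T cells (Treg), called Treg-treated. CD8 T cells had the same 2, 3, 4 and 4 libraries. Treg had 2 libraries at day 0 and 3 from Treg-treated recipients after transplantation, which makes 31 libraries in 10 groups. Titles place the later time at day 6 and the series text at day 8. The library names carry the prefix JL019 or JL027, which a column of the receptor tables calls the experiment. Nothing in the labels says whether libraries pooled animals, and only the recipient's number ties CD4, CD8 and Treg libraries to 1 source.

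The proteasome is the cell's main protein-degrading complex: a barrel of alpha and beta rings, in which Psmb5, Psmb6 and Psmb7 carry the active sites, with a 19S cap that unfolds tagged proteins. Interferon gamma is known to induce Psmb8, Psmb9 and Psmb10, which replace these active subunits in newly made barrels, and Psme1 and Psme2, which form the PA28 ring that opens the barrel. Lymphocytes are known to carry this immunoproteasome even at rest, and its products feed peptide presentation on class I histocompatibility molecules.

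Promoters are shown for 3 interferon-induced and 2 constitutive genes, since the classes are known to be controlled by different factors. RefSeq windows (build GRCm38.p6) of 300 bases, 250 before and 50 after the start site, were found for 43 of the 51 genes and for all 5 immunoproteasome genes. Psmb8 lies at chr17:34197945-34198244 (plus strand), Psmb9 at chr17:34187281-34187580 (minus), Psme1 at chr14:55578244-55578543 (plus), Psmb5 at chr14:54617946-54618245 (minus) and Psmb6 at chr11:70525107-70525406 (plus). They are written 5′ to 3′ on the strand of the gene, with capitals for matches on either strand to GAAA, any 2 bases and GAAA (the interferon-stimulated response element, ISRE), TTCNNNGAA (the gamma-activated site, GAS), TGACNNNGC (the antioxidant response element, ARE, to which Nrf1 and Nrf2 bind) or CCGGAAG (ETS factors).
Psmb8: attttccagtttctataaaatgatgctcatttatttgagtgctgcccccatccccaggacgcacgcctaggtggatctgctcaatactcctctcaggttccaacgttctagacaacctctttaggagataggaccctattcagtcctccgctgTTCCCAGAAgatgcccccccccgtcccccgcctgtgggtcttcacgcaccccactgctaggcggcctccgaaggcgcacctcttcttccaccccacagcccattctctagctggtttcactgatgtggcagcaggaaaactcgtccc
Psmb9: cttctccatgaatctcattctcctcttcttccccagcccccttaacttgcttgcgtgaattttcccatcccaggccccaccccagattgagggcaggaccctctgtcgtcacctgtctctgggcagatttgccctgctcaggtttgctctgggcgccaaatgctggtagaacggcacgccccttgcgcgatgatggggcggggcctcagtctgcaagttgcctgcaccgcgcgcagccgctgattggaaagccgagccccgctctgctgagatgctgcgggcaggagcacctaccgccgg
Psme1: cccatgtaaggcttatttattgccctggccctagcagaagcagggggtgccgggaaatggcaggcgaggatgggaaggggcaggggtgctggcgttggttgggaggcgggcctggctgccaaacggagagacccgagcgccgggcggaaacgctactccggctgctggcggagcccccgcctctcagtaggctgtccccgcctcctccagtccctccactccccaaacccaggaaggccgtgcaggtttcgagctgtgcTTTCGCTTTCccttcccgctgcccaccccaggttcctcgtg
Psmb5: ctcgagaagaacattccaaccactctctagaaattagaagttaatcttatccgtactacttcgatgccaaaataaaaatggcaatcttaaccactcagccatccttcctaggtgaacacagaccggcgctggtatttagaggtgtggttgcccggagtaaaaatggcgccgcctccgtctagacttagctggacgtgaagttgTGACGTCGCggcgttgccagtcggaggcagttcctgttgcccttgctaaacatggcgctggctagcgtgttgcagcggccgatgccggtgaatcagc
Psmb6: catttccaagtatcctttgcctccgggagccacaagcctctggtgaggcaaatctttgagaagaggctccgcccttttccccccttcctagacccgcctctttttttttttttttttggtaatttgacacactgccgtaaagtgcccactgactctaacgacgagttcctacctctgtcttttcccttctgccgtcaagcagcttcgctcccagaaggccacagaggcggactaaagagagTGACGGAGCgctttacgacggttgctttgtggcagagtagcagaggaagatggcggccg

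The Psmb8 window held a GAS match at -97, counted from the start site to the first base of the match, and the Psme1 window an ISRE match at 10. The Psmb9 window held none of the 4 motifs. It shares most of its bases with the window of Tap1 (chr17:34187306-34187605, plus strand), a peptide transporter gene that starts in the opposite direction. Psmb5 and Psmb6 each held an ARE match, at -47 and -9. Over all 32851 windows the share with a match was 3.44% for ISRE, 8.30% for GAS and 12.4% for ARE. ISRE matched in 5 of 47 windows of the members, GAS in 3 and ARE in 6. Of these, 4 ISRE, 2 GAS and 6 ARE windows were of the other proteasome genes (38 windows), and of the 6 immunoproteasome windows 1 held ISRE, 1 GAS and 0 ARE. Psmb10 and Psme2 held none of the 4 motifs. CCGGAAG matched in 15 of 38 windows of the other proteasome genes (39.5%), in 0 of 6 windows of the immunoproteasome genes and in 8.86% of all windows. These are matches of letters, and binding was not measured.

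The values are counts scaled between libraries by the authors, called levels here, and the depth behind them is unknown. The mean level per gene, over all genes of a library, lay between 1227 and 2385. In 1 library, CD4 syngeneic JL019-2, lineage genes went against the label: Cd4 was 1659, against 14576 and 16526 in the other libraries of the group, and Cd8a was 1956. The summed level of 8 myeloid markers was 3580850 in that library, against 77819 and 83701 in the other libraries of its group, so the counts and tests of members that use it are also given without it. Summed myeloid markers were 726 to 4798 at day 0 (Cd14 was at 0 in both CD4 libraries), 1844 to 7080 in Treg after transplantation, 37566 to 61652 in CD8 syngeneic, 5357 to 10917 in the allogeneic libraries of both cell types, 23538 to 86063 in CD4 Treg-treated and 11631 to 31546 in CD8 Treg-treated cells. Foxp3, the defining Treg gene, was lower in Treg (198 and 442) than in CD4 cells (1145 and 978) at day 0, whereas the summed level of 5 Treg markers was 51021 to 52759 against 9099 to 9700. In bulk samples, fewer cells of a type and less RNA per cell cannot be told apart.

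The immunoproteasome genes had their lowest group means before transplantation. Psmb8, the inducible chymotrypsin-like subunit (ENSMUSG00000024338, chr17:34198195-34201454), had its lowest mean in Treg at day 0 (8569 ± 896, SD, n = 2) and its highest in CD4 Treg-treated cells (25592 ± 8850, SD, n = 4). All 3 day 0 groups lay below all later groups for Psmb8, Psmb9, Psmb10 and Psme2, whereas for Psme1 the day 0 and allogeneic ranges overlapped. The share of all genes that separate in this way is not given here. The mean level per gene was 1227 to 1484 in the day 0 libraries and 1452 to 2385 in the later ones. Highest over lowest group mean was 4.43-fold for Psme2 (chr14:55587440-55591101), 3.46-fold for Psmb9 (chr17:34182030-34187330), 3.03-fold for Psmb10 (chr8:105935728-105938392), 2.99-fold for Psmb8 and 2.67-fold for Psme1 (chr14:55578494-55581527). Among the constitutive catalytic genes it was 4.08-fold for Psmb5 (chr14:54614120-54617995), 3.13-fold for Psmb6 (chr11:70525324-70527858) and 4.02-fold for Psmb7 (chr2:38588046-38643952). After transplantation, most neighbouring groups in this order overlapped. CD4 Treg-treated cells held the highest mean for 3 of the 5 immunoproteasome genes and CD8 syngeneic cells for the other 2. Of the 44 other proteasome genes, 18 were highest in CD4 Treg-treated and 14 in CD8 Treg-treated cells, and 38 had their lowest mean in CD4 or Treg at day 0.

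**Figure D1:**
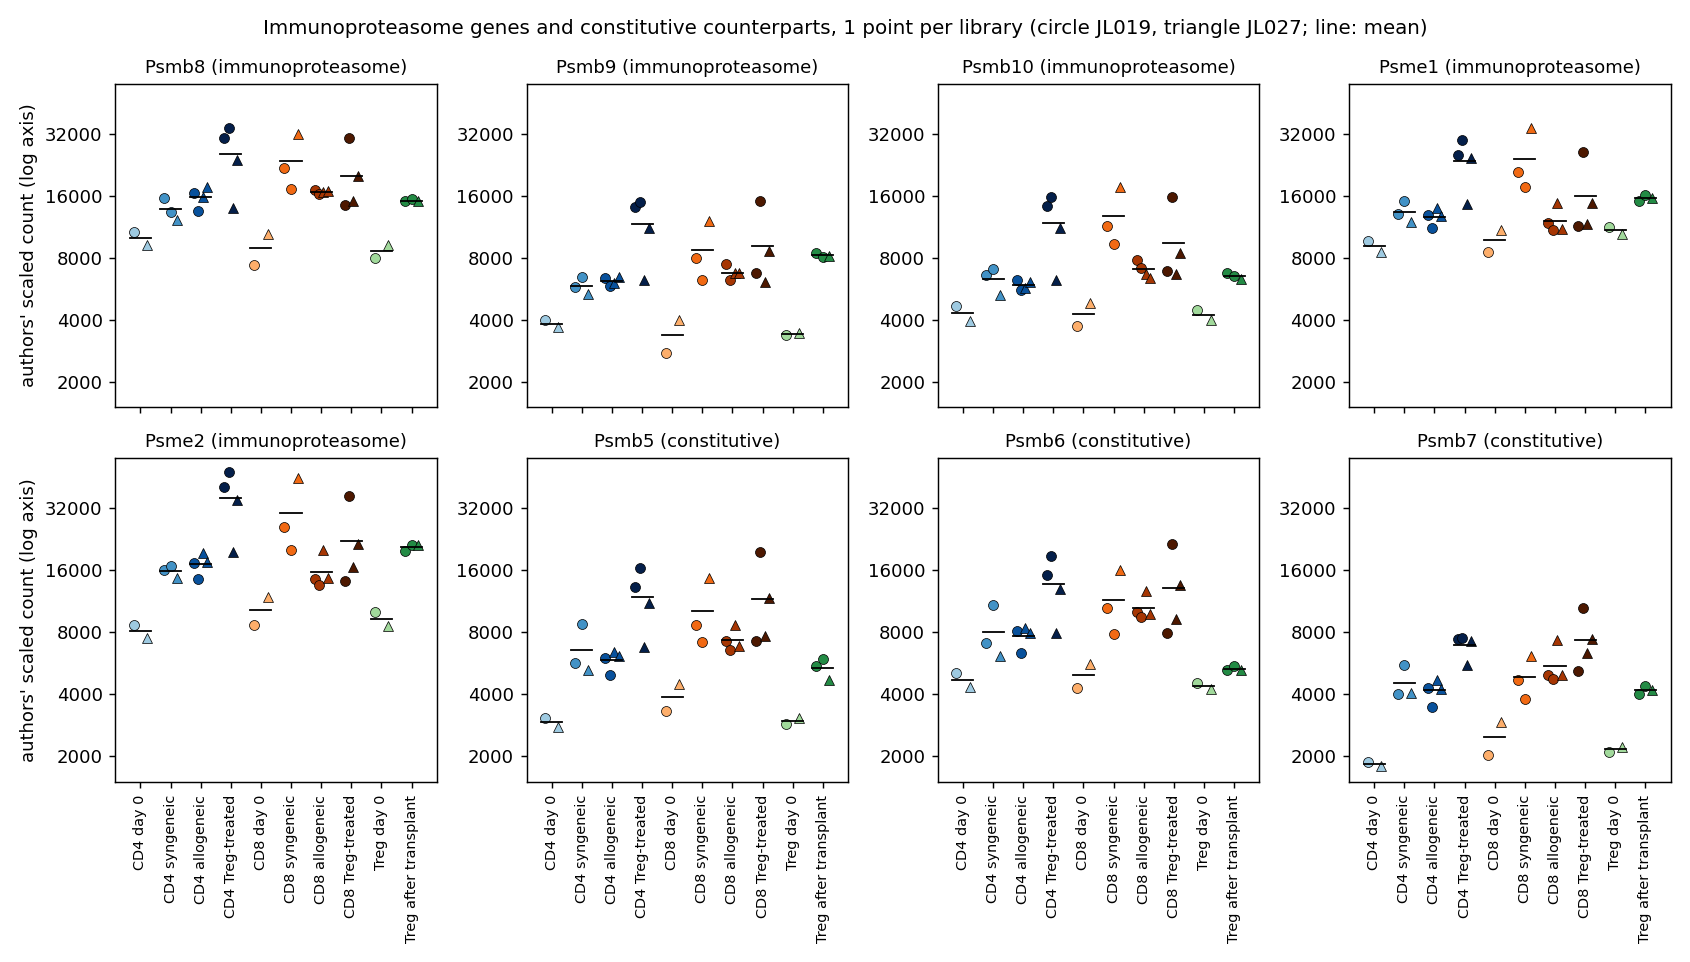
Levels (authors' scaled counts, log axis) of the 5 immunoproteasome genes and the 3 constitutive catalytic genes in 31 libraries; points are libraries, lines group means. For Psme2, 3 CD4 Treg-treated libraries sit between 35294 and 48047 and the fourth, JL027-1, at 19549, beside the allogeneic libraries (14454 to 19502).

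**Figure D2:**
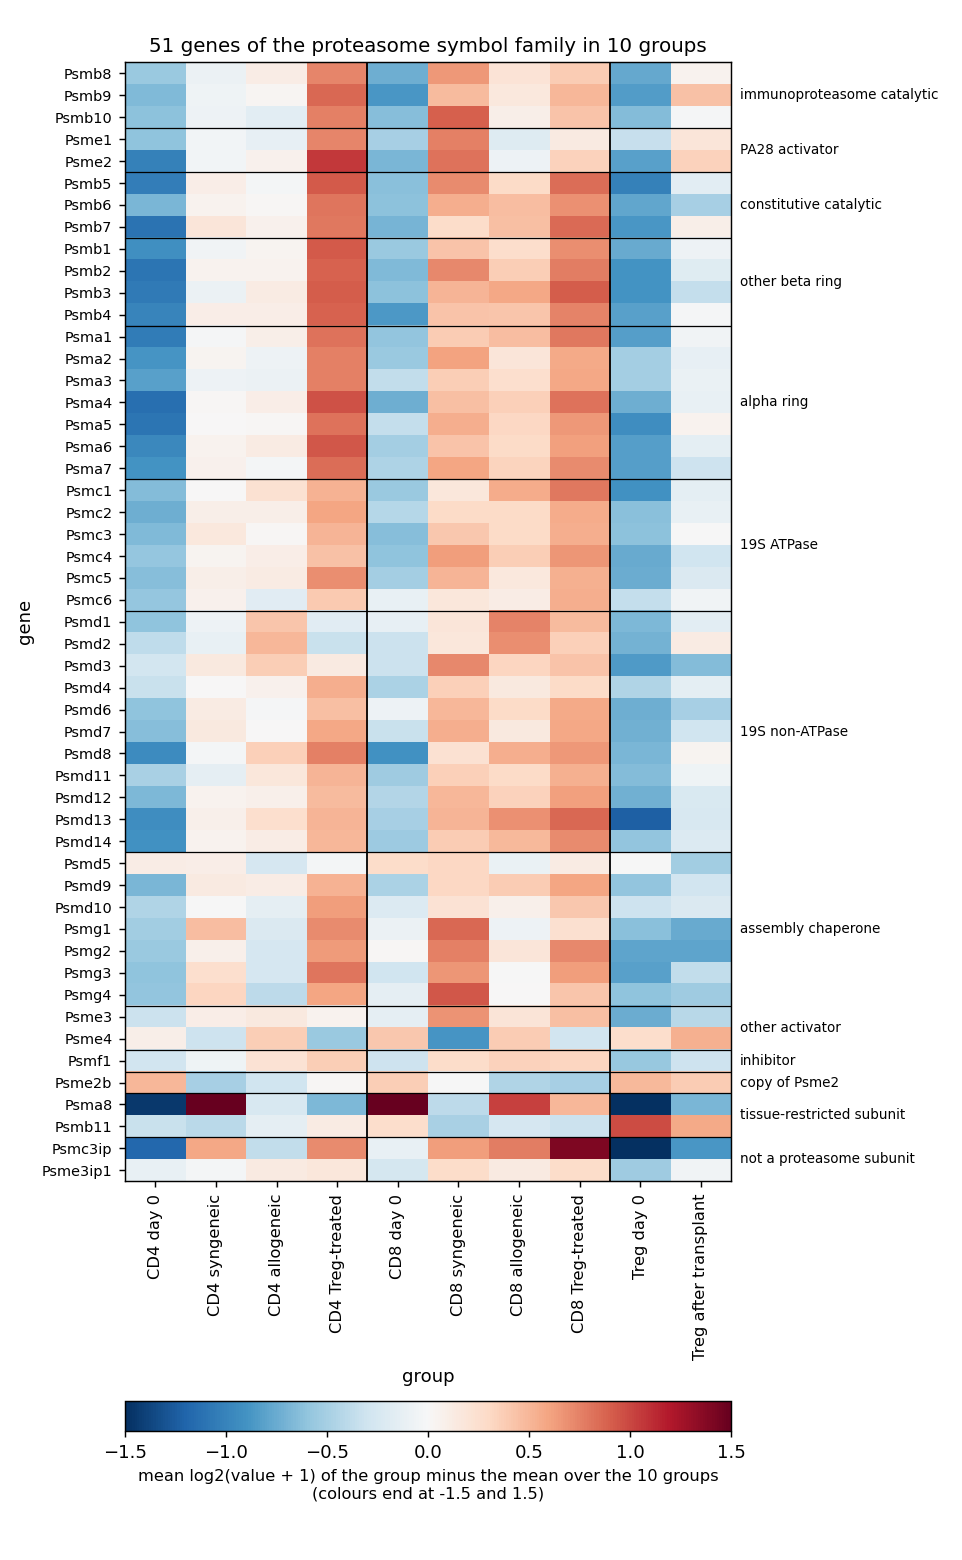
Mean log2(level + 1) of each of the 51 genes in each of 10 groups, as the difference from the gene's mean over the groups; rows are genes by role, columns groups, red higher and blue lower. The day 0 columns are blue for nearly all rows, with exceptions such as Psme4, Psmd5, Psme2b and the tissue-restricted genes.

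The change from day 0 was read in each cell type with limma on log2(level + 1), adjusted over all genes. After transplantation, most proteasome genes were higher than at day 0, and the genes called (adjusted p under 0.05) were nearly all higher. In CD8 syngeneic cells 35 genes rose and 1 fell, where 24.2% of all genes were called, 13% higher and 11.3% lower. All 5 immunoproteasome genes rose there, by 1.26 to 1.53 on the log2 scale (median 1.38, against 0.93 for the 44 other proteasome genes and -0.10 for all genes). Psmb10, the inducible trypsin-like subunit, was 3717 and 4843 at day 0 and 11406, 9276 and 17554 in CD8 syngeneic cells (JL019-1, JL019-2, JL027), without overlap (log2 change 1.53, SE 0.32, adjusted p 0.00149). The count fell to 13 without CD8 syngeneic JL027, with all 5 immunoproteasome genes still called, and to 2, none of these 5, without CD8 day 0 JL019, the lower of the 2 day 0 libraries for all 5 genes.

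In CD8 allogeneic cells 25 genes rose and 1 fell against day 0 (30.4% of all genes were called, 16.3% higher and 14.2% lower). Psmb8 and Psmb9 rose, by 0.93 and 1.03, whereas Psmb10 (0.72), Psme2 (0.61) and Psme1 (0.31) were not called. The comparison shares its day 0 libraries with that of the syngeneic cells. In CD4 allogeneic cells 25 genes also rose and 1 fell (24% of all genes called, 14.4% higher and 9.61% lower), with Psme2 the only one of the 5 immunoproteasome genes called (log2 change 1.08, adjusted p 0.015). In CD4 syngeneic cells 16 rose and 1 fell (13% of all genes called, 9.9% higher and 3.13% lower), none of them of the immunoproteasome. These counts rested on the day 0 pairs: the CD8 allogeneic count was 5 without day 0 JL019, the CD4 allogeneic count 9 without day 0 JL019 and 5 without JL027, and the CD4 syngeneic count 3 without either. Without CD4 syngeneic JL019-2 the CD4 syngeneic count was 4 (Psmb7, Psmd13, Psmd14 and Psmc3ip). In that fit 6.48% of all genes were called higher and 1.45% lower, so this count lay near the share of all genes. Markers of other cells moved with these comparisons. Of 8 myeloid markers, 5 rose from day 0 in CD4 allogeneic, 8 in CD4 syngeneic (6 without JL019-2) and 2 in CD8 syngeneic cells, and 4 rose and 2 fell in CD8 allogeneic cells. Of 5 B cell markers, 2, 1 (2 without JL019-2), 4 and 3 fell in these groups in that order. Of 5 Treg markers, 4 rose in CD8 allogeneic cells (median 4.88), 3 rose and 1 fell in CD4 allogeneic cells, 2 rose and 2 fell in CD8 syngeneic cells, and 1 fell in CD4 syngeneic cells (0 without JL019-2). Of 4 erythroid markers, 3 rose in CD4 syngeneic cells (median 4.60; 0 without JL019-2), and 1 fell in CD8 allogeneic and 1 in CD8 syngeneic cells. Their part in the counts was not tested.

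Outside the immunoproteasome and its constitutive counterparts, the proteasome genes with the lowest adjusted p against day 0 were of the cap. Ring genes changed by similar amounts, with larger SEs. In CD4 allogeneic cells Psma4 rose by 1.23 (SE 0.30), Psmb3 by 1.18 (SE 0.34) and Psmb2 by 1.15 (SE 0.33). The alpha ring genes Psma2 and Psma3 were not called there. The SE of Psmd13 was 0.19. Psmd13, a structural subunit of the 19S lid, was 2239 and 2314 in CD4 cells at day 0 and 4686 to 6141 in the 4 CD4 allogeneic libraries. Its log2 change from day 0 was 1.18 in CD4 allogeneic (adjusted p 2.5e-05), 1.19 in CD8 allogeneic, 1.01 in CD4 syngeneic (0.96 without JL019-2, still called), 1.01 in CD8 syngeneic and 0.99 in Treg, and it was called in all 5. Psmd8, another lid subunit, rose by 1.30 in CD4 and 1.46 in CD8 allogeneic cells. Psmd14, the lid's deubiquitinase, rose by 1.02 in CD4 allogeneic and 0.96 in CD4 syngeneic cells (0.92 without JL019-2, still called). Among the ATPases, Psmc1 rose by 1.11 in CD8 allogeneic and Psmc4 by 1.23 in CD8 syngeneic cells. The constitutive catalytic gene Psmb7 rose by 1.18 in CD4 allogeneic, 1.29 in CD4 syngeneic (1.14 without JL019-2, still called), 1.15 in CD8 allogeneic and 0.97 in CD8 syngeneic cells. Of the 6 ATPases, 5 rose in CD4 allogeneic, CD8 allogeneic and CD8 syngeneic cells and 2 in CD4 syngeneic cells. Of the 11 other cap subunits, 8, 7, 8 and 4 rose in these groups, and of the 7 assembly chaperones 0, 1, 2 and 1. Without JL019-2 the CD4 syngeneic counts of these 3 roles were 0, 2 and 0, where 6.48% of all genes were higher. The difference between these roles was not tested.

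In Treg, 7 genes rose and 0 fell after transplantation (13.3% of all genes were called, 8.43% higher and 4.89% lower). Psmb9, the inducible subunit that replaces the caspase-like Psmb6, was 3364 and 3433 at day 0 and 8415, 8079 and 8134 afterwards. This was a rise without overlap, with little spread between the libraries of a group (log2 change 1.27, SE 0.32, adjusted p 0.00702). Psme2 rose by 1.16, from 10034 and 8619 to between 19774 and 21300. Psmb8 (0.82), Psmb10 (0.63) and Psme1 (0.52) were not called. Among other members, Psmd13, Psmb7 (0.96), Psmc1 (0.76), Psmd11 (0.58) and the alpha ring gene Psma5 (0.98) rose. The count was 1 without either day 0 library and 3 or 4 without any one of the later ones. Centring each library on its median gave 2, and after adding the library mean as a covariate 6 members were higher and 5 lower. Of 4 erythroid markers 2 rose (median 4.15), at summed levels of 81.4 and 236 at day 0 and 821 to 23024 afterwards, and of 8 myeloid markers 1 rose and 1 fell. Their part in the counts was not tested.

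The effect of alloreactivity was read between allogeneic and syngeneic recipients. In CD8 cells 3 of the 5 immunoproteasome genes were lower in allogeneic recipients, together with 3 other members, and 1 member was higher, where 21.1% of all genes were called, 10.4% higher and 10.7% lower. Psme1, the alpha subunit of PA28, was 20771, 17693 and 34110 in syngeneic and 11726, 10936, 14659 and 11077 in allogeneic libraries, without overlap (log2 change -0.95, SE 0.25, adjusted p 0.00661). Psme2, its beta subunit, was 26070, 20169 and 44936 against 14462, 13602, 20187 and 14716. Its ranges met, since allogeneic JL027-1 reached the lowest syngeneic library (log2 change -0.88, SE 0.29, adjusted p 0.027). Psmb10 was 9276 to 17554 against 6394 to 7814, without overlap (log2 change -0.81, SE 0.27, adjusted p 0.0318). Psmb8 (-0.45, SE 0.26) and Psmb9 (-0.32, SE 0.27) were not called. The median over the 5 was -0.81, against -0.13 for the 44 other proteasome genes and 0.02 for all genes.

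Among the other members, the assembly chaperones Psmg1 (log2 change -0.93, adjusted p 0.00913) and Psmg4 (-0.92, adjusted p 0.0256), which pair up the alpha subunits, and the nuclear activator Psme3 (-0.48, adjusted p 0.0334) fell. Psme4, which encodes the activator PA200, rose by 1.27 (SE 0.31, adjusted p 0.00344), from 512, 774 and 387 to between 1064 and 1521. None of the alpha ring, constitutive catalytic, further beta ring, ATPase or other cap genes was called. With array weights, whose estimation stopped short of its convergence tolerance, 31 members were called, all 5 of the immunoproteasome among them. They also took in 3 alpha ring genes, Psmb5, Psmb2, 3 ATPases and 7 other cap subunits. The share of all genes called with array weights is not given here. The syngeneic library JL027 was the highest for each of the 5 immunoproteasome genes. Without it 2 members were called, Psme1 was at -0.67 (adjusted p 0.0935), Psme2 at -0.56 and Psmb10 at -0.56, and Psme4 was still called (1.04). Without allogeneic JL019-1, JL019-2 or JL027-2 the count was 4, 3 and 4. Within experiments the median of the 5 genes was -0.46 in JL019 and -1.38 in JL027, where 1 syngeneic library stands against 2. Other lists moved with this comparison. Of 8 myeloid markers 4 were lower and 2 higher in allogeneic cells, with the sums above. All 5 Treg markers were higher (median 4.53), at summed levels of 3563 to 6765 in syngeneic and 26181 to 34336 in allogeneic libraries, and 5 of 10 proliferation genes were higher. The length slope of the library, the slope of its log2 deviations from each gene's mean on the log2 genomic span of the gene, is negative where long genes are low. It was -0.058, -0.0083 and -0.10 in the syngeneic libraries (JL019-1, JL019-2, JL027) and -0.018 to 0.014 in the allogeneic ones. With the length trend removed from each library 6 members were called, and the median over the 5 was -0.65. The part of the marker lists in these values was not tested.

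In CD4 cells the same comparison called 0 genes higher and 1 lower of 51, with 14.6% of all genes called, 6.69% higher and 7.91% lower, and that gene, Psmc3ip, is no proteasome subunit. Markers moved with this comparison too: 7 of 8 myeloid (5 without syngeneic JL019-2), 2 of 2 CD8 and 2 of 4 dendritic markers were lower and 3 of 5 Treg markers higher in allogeneic cells. The immunoproteasome changes lay between -0.08 and 0.20, with SEs of 0.25 to 0.29. Psmb8 was 15592, 13383 and 12233 in syngeneic and 13486 to 17553 in allogeneic libraries, and the groups overlapped. No member was called without CD4 syngeneic JL019-2 (Psmc3ip at -0.60, median over the 5 at 0.15). In that fit 5.41% of all genes were higher and 5.45% lower. Nor was any member called without allogeneic JL019-1, JL019-2 or JL027-2. The CD8 change minus the CD4 change was negative for all 5 (median -0.73, against -0.15 for the 44 others), but limma called none of the 51 members for this difference, where 4.65% of all genes were called (2.69% higher and 1.96% lower) and 4 members had an unadjusted p under 0.05. The widest difference among the 5 was that of Psme2 (-0.99, SE 0.40, adjusted p 0.188). Without CD4 syngeneic JL019-2 the medians were -0.82 and -0.30, Psme2 was at -1.04 (adjusted p 0.235) and again no member was called. Other settings did call members for the difference. Psme1 and Psme2 were called with quantile normalisation, Psme1 with scaling to 1 total, and Psme1, Psme2, Psmb10 and Psmc3ip with the library mean as a covariate (the last pair of settings were chosen after seeing the data). With array weights, whose estimation stopped short of its convergence tolerance, 13 were called, 4 of them of the immunoproteasome. The shares of all genes called at these settings are not given here. Whether the CD4 and CD8 effects differ for these genes thus depended on the setting.

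The effect of Treg was read between Treg-treated and allogeneic recipients. In CD4 cells 29 of the 51 genes rose and 2 fell, where 22.2% of all genes were called, 10.7% higher and 11.5% lower. Of the immunoproteasome 4 of 5 rose: Psme2 by 0.99 (SE 0.26, adjusted p 0.0153), Psmb10 by 0.92, Psme1 by 0.85 and Psmb9 by 0.83. Psmb8 (0.62, SE 0.24, adjusted p 0.0582) was not called. The whole core barrel rose beside them: 7 of 7 alpha ring genes (0.73 to 0.87), all 3 constitutive catalytic genes (Psmb5 by 0.95, Psmb6 by 0.78, Psmb7 by 0.73) and 4 of 4 further beta ring genes (0.79 to 0.88). Of the cap, 4 of 6 ATPases rose (0.30 to 0.57 over the 6), and of the 11 other cap subunits 1 rose and 1 fell. Of the 7 assembly chaperones 5 rose, among them Psmg1 by 0.94 and Psmg2 by 0.89. Psmc3ip, which is no subunit, rose by 1.08.

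The libraries behind these values fell into unequal sets. Cd4, the lineage marker, was 9108, 8722, 17587 and 9370 in the Treg-treated libraries (JL019-1, JL019-2, JL027-1, JL027-2) and 16706 to 21480 in the allogeneic ones, so it was low in 3 Treg-treated libraries and not in JL027-1. In the order JL019-1, JL019-2, JL027-1 and JL027-2, Psme2 was 40758, 48047, 19549 and 35294 in Treg-treated and 17348, 14454, 19502 and 17508 in allogeneic cells. Psmb8 was 30522, 34005, 13879 and 23960 against 16482, 13486, 15768 and 17553. Treg-treated JL027-1 lay within the allogeneic range for Psmb8, Psmb9, Psmb10 and Psmb6 and above its highest library for Psme1, Psme2, Psmb5 and Psmb7, while the other 3 libraries lay above it for all 8. Psmb5, the constitutive chymotrypsin-like subunit that Psmb8 replaces, showed the same order, at 13274, 16507, 6749 and 11107 against 4974 to 6428. Psme4 went the other way, at 579, 557, 1230 and 513 against 1187 to 1414 (log2 change -0.93, SE 0.29, adjusted p 0.0248). Psmd2, the large scaffold subunit of the cap, likewise fell (-0.84, SE 0.27, adjusted p 0.0283), at 6206, 5904, 12852 and 6760 against 12259 to 14168.

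Leaving out single libraries ended these calls. The count was 0 without Treg-treated JL019-2, 2 without JL019-1 and 1 without JL027-2, and 35 without JL027-1. It was 11, 2 and 19 without allogeneic JL019-1, JL019-2 and JL027-2. How far calls over all genes changed in these fits is not given here. The median over the 5 immunoproteasome genes was 0.85, and 0.72 without Treg-treated JL019-2. Within experiments it was 1.25 in JL019 and 0.50 in JL027, with 0.72 and 0.31 for the 44 others. The mean level per gene of the library moved with the members: it was 1964, 2118, 1608 and 1817 in the Treg-treated and 1504 to 1669 in the allogeneic libraries. With this mean as a covariate, which was chosen after seeing the data, no member was called and the medians were 0.42 and 0.23. The length slope was -0.099, -0.12, 0.016 and -0.069 in the Treg-treated libraries in the same order, against 0.019 to 0.045 in the allogeneic ones, so JL027-1 again lay nearest to the allogeneic libraries. With the length trend removed 27 members were called and the medians were 0.66 and 0.49. Of 8 myeloid markers 2 were higher and 1 lower with Treg treatment, with the sums above. Of 5 T cell markers 2 were higher, at summed levels of 127603 to 246352 against 110705 to 133325. The part of these markers was not tested.

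In CD8 cells limma called none of the 51 genes for Treg treatment, where 0.0657% of all genes were called (0.0478% higher and 0.0179% lower) and 6 members had an unadjusted p under 0.05. The immunoproteasome changes lay between 0.18 and 0.42, all positive, as were those of 44 of the 51 genes. Psme2 was 14249, 36607, 16623 and 21556 in Treg-treated and 13602 to 20187 in allogeneic cells. JL019-2 was the highest Treg-treated library for all 8 genes plotted by library, and JL027-2, the next, also lay above the highest allogeneic library for each. The other pair lay within or below the allogeneic range. JL019-2 had the highest mean level per gene of all 31 and the lowest length slope (-0.12), and JL027-2 a slope of -0.056, where the other pair was at -0.0071 and 0.015.

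**Figure D3:**
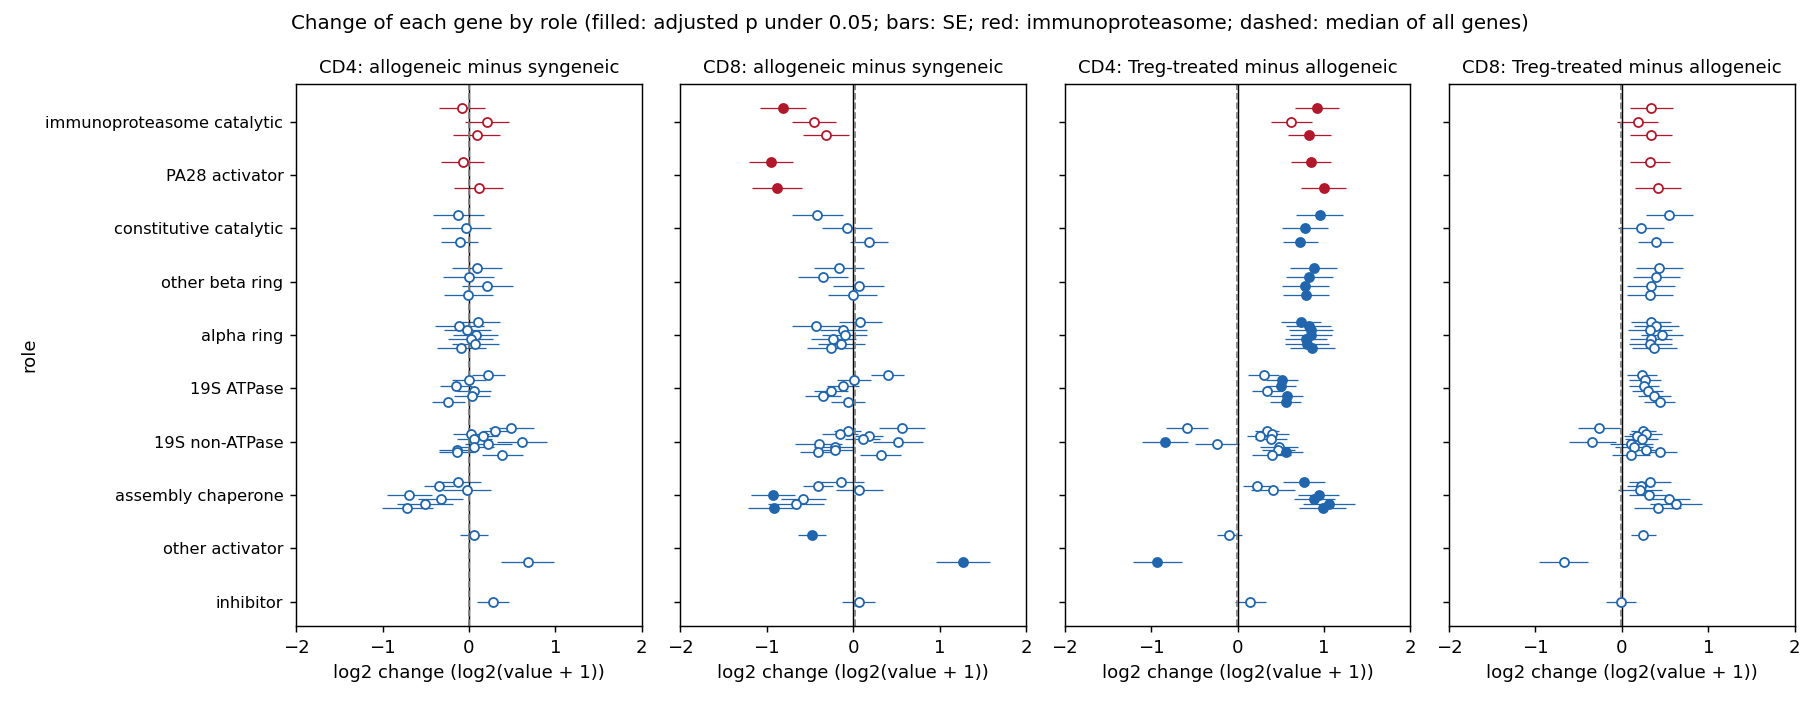
Log2 change of each proteasome gene by role in 4 comparisons; points are genes (within a role in alphabetical order from the top, Psmb10 before Psmb8), bars SEs, filled points adjusted p under 0.05, dashed lines the median of all genes. In CD4 cells after Treg treatment all 7 alpha ring and all 7 other barrel genes outside the immunoproteasome are filled, and in CD8 cells none is.

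Treg were compared with CD4 cells from the same kind of recipient. In Treg-treated recipients 40 members were lower in Treg and 1, Psme4, was higher (1.09, SE 0.31, adjusted p 0.00981), where 30% of all genes were called, 13.9% higher and 16.1% lower. Of 10 proliferation genes, 8 were lower in Treg as well. Of 8 myeloid markers 3 were lower and 1 higher (median -0.93), with the sums above, and of 5 T cell markers 2 were lower. Treg markers were higher for 4 of 5. The length slope was 0.039 to 0.057 in the Treg libraries, above all 4 CD4 libraries. With the length trend removed 38 members were called, none of them of the immunoproteasome, whose median was -0.40. The part of these in the member counts was not tested. All 7 alpha ring genes and all 7 assembly chaperones were lower, the chaperones most (median -1.13, with Psmg1 at -1.47 and Psmg2 at -1.43). Of the constitutive catalytic genes Psmb6 was lower by -1.30, Psmb5 by -1.08 and Psmb7 by -0.71. Of the immunoproteasome only Psmb10 (-0.78) and Psmb8 (-0.68) were called, with Psme2 (-0.71), Psme1 (-0.55) and Psmb9 (-0.42) not called. The median over the 5 was -0.68, against -0.77 for the 44 others. The count was 25 without Treg JL019-1, 27 without CD4 Treg-treated JL019-2 and 21 with the library mean as a covariate.

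At day 0 limma called 0 of 51 genes between Treg and CD4 cells (3.89% of all genes, 2.54% higher and 1.34% lower, 1 member at an unadjusted p under 0.05) and 0 between CD8 and CD4 cells (3.32% of all genes, 2.22% higher and 1.1% lower, 3 members). Psmb8 was 7936 and 9203 in Treg, 10672 and 9224 in CD4 and 7372 and 10470 in CD8 cells. The CD8 range held the whole Treg range and overlapped that of CD4 cells, and both Treg libraries lay below both CD4 libraries, by a narrow margin. Between CD8 and CD4 cells of allogeneic recipients 1 of 51 was called (6.15% of all genes, 3.05% higher and 3.09% lower), again Psmc3ip, at 1.14, and 0 were without CD4 JL019-2 or CD8 JL027-1.

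The catalytic pairs were also set against each other within each library, where the scaling between libraries cancels. The ratio of 2 genes depends on their lengths, so only its difference between groups is read, and no test was made. That difference is not free of gene length, since the length slope differed between libraries. By the coordinates above, Psmb7 spans far more bases than Psmb10. The log2 ratio of Psmb9 to Psmb6, the gene it replaces, was 0.55 to 0.68 in the 3 Treg libraries after transplantation, and -0.92 to -0.11 in all other 28 libraries. At day 0 the Treg libraries were at -0.44 and -0.30. The Treg libraries after transplantation thus stood apart from every other group in this pair, with Psmb9 at 8079 to 8415 and Psmb6 at 5238 to 5508. The other pairs did not follow in Treg. Their mean log2 ratios changed from day 0 by -0.03 for Psmb8 over Psmb5 and by -0.33 for Psmb10 over Psmb7.

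For Psmb10 over Psmb7 the CD8 syngeneic libraries had the highest group mean, at 1.28 to 1.51. This was without overlap among CD8 cells, against 0.72 and 0.88 at day 0, -0.13 to 0.66 in allogeneic and 0.08 to 0.59 in Treg-treated cells. In CD4 cells the ratio was 1.14 and 1.31 at day 0, overlapping the CD8 syngeneic range, and lower in syngeneic recipients, at 0.71 and 0.38, with 0.35 in JL019-2. The length slopes at day 0 were 0.052 and 0.033 in the same order. In CD4 Treg-treated cells the ratio was 0.94, 1.07, 0.17 and 0.62 (JL019-1, JL019-2, JL027-1, JL027-2). The length slopes there were -0.099, -0.12, 0.016 and -0.069. The part of gene length in these ratios was not tested. For Psmb8 over Psmb5 the CD4 day 0 libraries were highest, at 1.74 and 1.79, against 1.29 to 1.52 in allogeneic and 1.04 to 1.20 in Treg-treated CD4 cells. CD4 syngeneic cells spanned 0.61 to 1.46, and the lowest was JL019-2, the library with the myeloid markers. In CD8 cells this ratio was 1.15 and 1.23 at day 0, 0.94 to 1.32 in allogeneic and 0.64 to 0.98 in Treg-treated cells. In CD4 allogeneic cells Psmb8 was 0.67 and Psmb5 1.01 above day 0 on the log2 scale, and only Psmb5 was called.

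**Figure D4:**
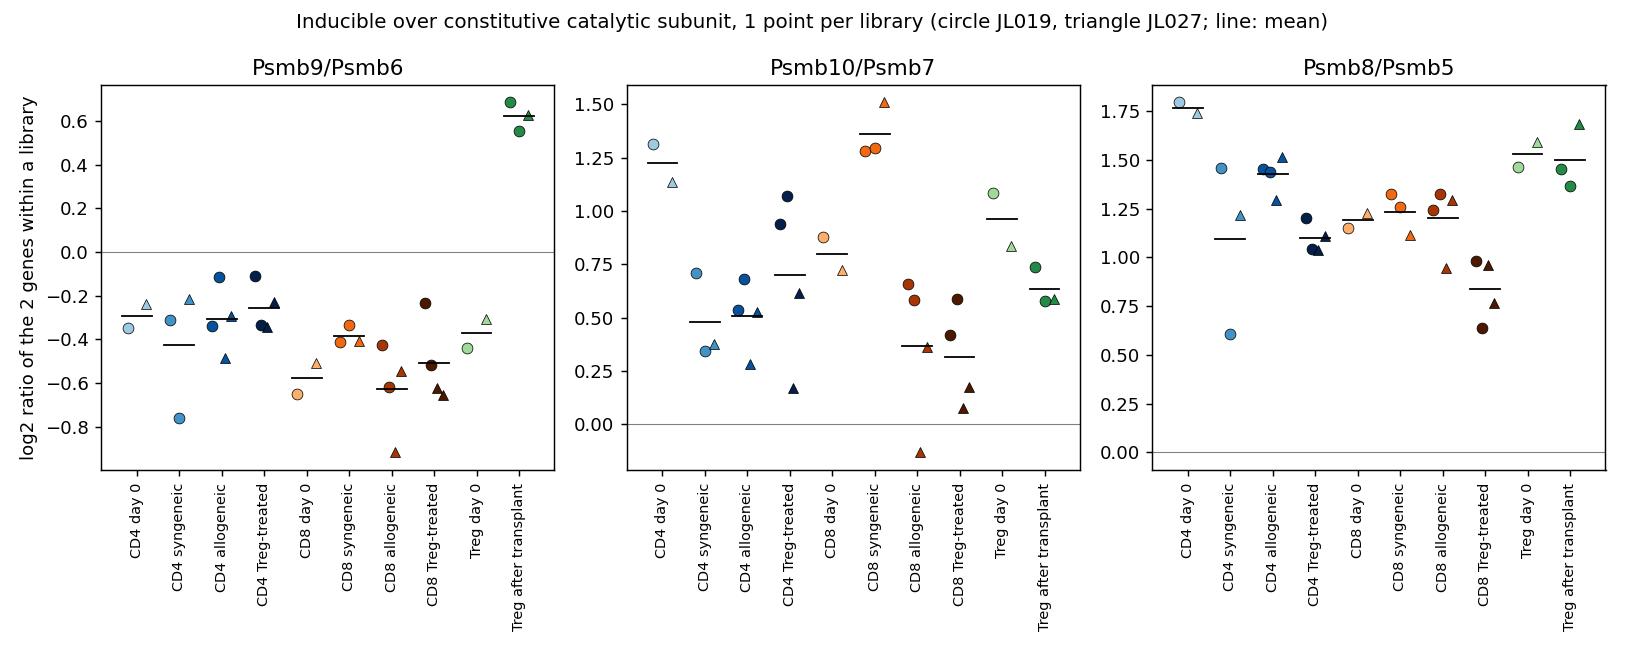
Log2 ratio of each inducible catalytic gene to the constitutive gene it replaces, within each of 31 libraries by group; points are libraries, lines group means. For Psmb9/Psmb6 the 3 Treg libraries after transplantation lie at 0.55 to 0.68 and all other libraries at or below -0.11.

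Some members moved apart from the rest. Psme4 fell where most members were higher (CD8 syngeneic against day 0, -1.29, and CD4 Treg-treated against allogeneic) and was higher where most were lower (Treg against CD4 in Treg-treated recipients). Over the 10 group means its Pearson r with the immunoproteasome mean was -0.66, whereas 44 of the 49 proteasome genes were positive; the points share libraries and scaling. Its genomic span, 109376 bases, is long beside the median of 11567 bases for the members and 20020 for all genes. Psme2b, a near-identical copy of Psme2 whose reads the authors' counting could split, fell from day 0 in CD4 allogeneic (-0.79), CD8 allogeneic (-0.82) and CD4 syngeneic cells (-0.995, and -0.62 without JL019-2, no longer called), where the log2 change of Psme2 was 1.08, 0.61 and 0.97 and was called only in CD4 allogeneic cells. Its levels, 733 to 1462 by group, are uncertain for that reason. Psma8 and Psmb11, subunits of testis and thymus cortex, had group means of 0 to 37.4 and 23.0 to 70.7 and were never called.

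Genes around the proteasome were counted from fixed lists. Of 9 partners outside the symbol family, 4 rose and 0 fell in CD4 cells with Treg treatment, where 10.7% of all genes were higher and 11.5% lower: Pomp, the barrel's maturation factor, by 0.95, Sem1, a cap subunit, by 0.99, Uchl5, a cap-bound deubiquitinase, by 0.79 and Txnl1 by 0.72. Pomp had a level of 7978 ± 1095 (SD, n = 4) without and 15883 ± 4645 (SD, n = 4) with Treg treatment. None of the 9 was called without Treg-treated JL019-1, JL019-2 or JL027-2 or allogeneic JL019-1 or JL019-2, and 1 without allogeneic JL027-2. Of 4 regulators of proteasome genes, 0 were higher and 1 lower in CD4 allogeneic against syngeneic cells (6.69% and 7.91% of all genes), and 1 was higher and 1 lower in the CD8 comparison (10.4% and 10.7% of all genes). The higher one was Ngly1, the glycanase that processes Nrf1, in CD8 cells (0.69, adjusted p 0.0472). Nfe2l2, which encodes Nrf2, was lower (-1.37 in CD4, or -1.08 without syngeneic JL019-2 and still called, and -1.67 in CD8). Ddi2, the protease that activates Nrf1, fell with Treg treatment in CD4 cells (-1.43), and was not called without any 1 of the same 6 libraries. Nfe2l1, which encodes Nrf1, was not called with Treg treatment in CD4 cells (-0.49, SE 0.31).

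Of 12 antigen processing genes, 3 were lower and 0 higher in CD8 allogeneic against syngeneic cells, where 10.7% of all genes were lower and 10.4% higher: H2-K1, a class I heavy chain (-0.999), B2m, its light chain (-0.84), and Tapbpl, a peptide editor (-0.54). H2-K1 was 101393 to 149352 in syngeneic and 46040 to 71324 in allogeneic CD8 cells. The count was 1 without syngeneic JL019-1 or JL027. For H2-K1 and Tapbpl the CD8 change also differed from the CD4 change (-1.27, adjusted p 0.00937, and -0.89, adjusted p 0.0429). Without CD4 syngeneic JL019-2 that of H2-K1 was -1.09 and still called, and that of Tapbpl -0.68 (adjusted p 0.151). With Treg treatment in CD4 cells, B2m (1.15) and H2-K1 (0.54) rose and the transporter genes Tap1 (-0.83, SE 0.34) and Tap2 (-0.57, SE 0.32) were not called. Only 1 of the 12 was called without any 1 of the 6 libraries named for the partners. In Treg after transplantation 4 of the 12 rose and 0 fell (8.43% and 4.89% of all genes): Pdia3, Calr, H2-K1 and Tapbpl, by 0.66 to 0.98. The count was 1 to 3 without any 1 library. Against CD4 cells of Treg-treated recipients 4 were higher in Treg and 0 lower (13.9% and 16.1% of all genes): Nlrc5 (1.40), Erap1 (1.11), Tap1 (1.08) and Tapbpl (0.70), where the called immunoproteasome genes were lower. That count was 2 to 5 without any 1 library. Of 10 genes of interferon gamma signalling, 2 were higher and 5 lower in CD8 allogeneic against syngeneic cells (10.4% and 10.7% of all genes). Ifng itself was higher (1.67) and so was its receptor chain Ifngr1 (1.65), and the transcription factor Irf1 (-0.87) and the inhibitor Socs1 (-2.35) were lower. In CD4 cells with Treg treatment 3 rose, among them Socs1 by 1.10, and 2 fell (Ifngr1 and Jak2), beside 10.7% and 11.5% of all genes. In Treg after transplantation 4 of the 10 rose and 0 fell (8.43% and 4.89% of all genes), with 2 or 3 rising without any 1 library. Against CD4 cells of Treg-treated recipients 5 were higher in Treg, among them Irf1 (0.92), and 1, Ifng (-2.43), was lower (13.9% and 16.1% of all genes). Of 10 proliferation genes, 10 rose from day 0 in CD4 allogeneic, CD8 allogeneic and CD4 syngeneic cells (also without JL019-2), where 14.4%, 16.3% and 9.9% of all genes rose. In CD8 syngeneic cells and in Treg 9 rose (13% and 8.43% of all genes). With Treg treatment in CD4 cells 3 rose (10.7% of all genes), and 1 without Treg-treated JL019-2.

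The genes whose 10 group means ran closest to the immunoproteasome mean, among 10484 genes with a mean level of at least 100, were Naa10 (Pearson r 0.99), Ubxn1, Antkmt, 2210016F16Rik, Cd52, Cib1, ENSMUSG00000097830 and Gstp1 (0.97). None is of the antigen processing list. Among the members, Psme2 (0.99), Psmb10 and Psmb8 (both 0.98), which enter the mean themselves, were closest, and Psma2 (0.95) and Psmd4 (0.94) followed among the others. B2m was at 0.63, Tap1 at 0.26 and Nlrc5, the class I transactivator, at -0.68. These are descriptions over 10 points that share libraries and scaling.

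Level and library were linked across the series. The median deviation of the immunoproteasome genes from their means over all libraries ran from -1.03 (CD8 day 0 JL019, mean level per gene 1227) to 1.25 (CD8 syngeneic JL027, mean level 2119). The 3 libraries with the highest mean level, CD8 Treg-treated JL019-2 at 2385, CD8 syngeneic JL027 at 2119 and CD4 Treg-treated JL019-2 at 2118, were also the 3 with the highest median over 42 other proteasome genes (0.90, 0.79 and 0.83). CD4 syngeneic JL019-2, at a mean level of 2033, was at -0.04 for the immunoproteasome. The median of the immunoproteasome genes minus that of the others was 0.40 to 0.44 in Treg after transplantation and 0.22 to 0.46 in CD8 syngeneic cells. In CD4 Treg-treated cells it was 0.38, 0.32, -0.24 and 0.17, so that 2 of the 4 libraries lay within the CD8 syngeneic range. It was -0.41 to 0.14 in CD8 Treg-treated, -0.14 to 0.02 in CD4 allogeneic and -0.30 to 0.01 in CD4 syngeneic cells. It was -0.49 to 0.06 in CD8 allogeneic cells, -0.29 and -0.19 in CD8 cells, 0.02 and 0.10 in CD4 cells and -0.04 and -0.01 in Treg at day 0. With the library mean as a covariate, 9 members were called in CD8 syngeneic cells against day 0 in place of 36.

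**Figure D5:**
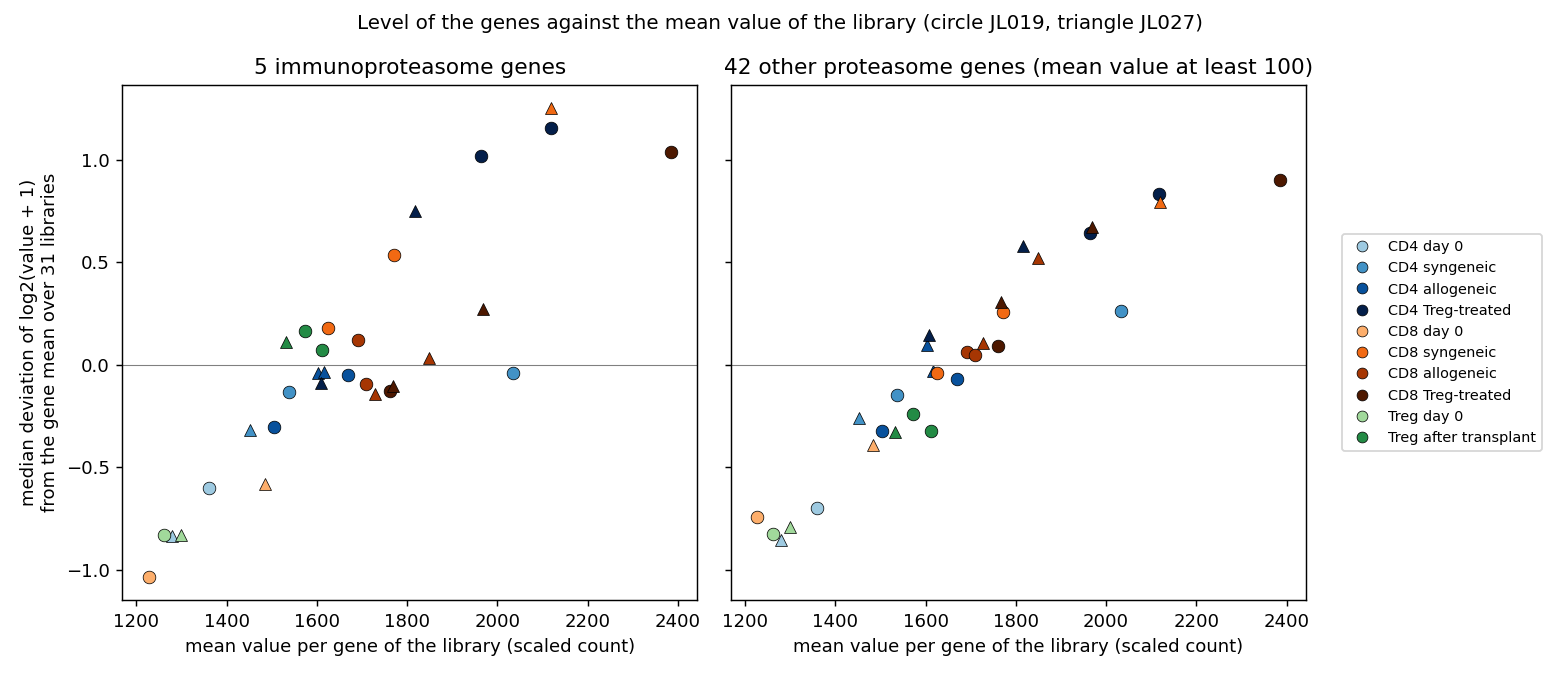
Median deviation of log2(level + 1) from the mean over 31 libraries, for 5 immunoproteasome genes (left) and 42 other proteasome genes with a mean level of at least 100 (right), against the mean level per gene of the library; points are libraries, coloured by group. The day 0 libraries, at 1227 to 1484, lie lowest, and the 3 libraries at 2118 to 2385 lie highest on the right.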

How the data were processed

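RNA of 31 libraries of sorted T cells was measured. Full-length cDNA was made with SMARTer v4 chemistry and libraries with Nextera XT, per the labels' protocols. Per the submitters' processing notes, the authors used FastQC 0.11.7, kallisto and DESeq2, and the builds GRCm38 and mm10 are named. The deposited values are a signal: counts scaled between libraries by the authors, as the file headers and values show (the mean over the libraries equals the table's own mean column). Values are not whole numbers and have no common step. The depth, and with it the precision per value, is therefore unknown. Columns of log2 fold changes and p-values in the authors' table give no group names and stayed out. The receptor tables (counts and percent by the authors) were not used here.

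limma 3.58.1 (R 4.3.3, trend and robust) was fitted to log2(value + 1) for all 16741 genes with a mean of at least 1, in 1 group-means model over the 31 libraries with 14 contrasts. Calls are Benjamini-Hochberg adjusted p under 0.05 over all genes. A log2 change on this scale understates that of low genes. The p-values measure the spread between libraries, which may be technical. Members and lists were chosen with earlier results of these data known. Library values are given for the 5 immunoproteasome genes and their 3 constitutive counterparts, with up to 3 rising and 3 falling other members per comparison by lowest adjusted p; further members named were chosen after their values were seen. Likeness was Pearson's r over 10 group means. Tested on simulated data for CD4 allogeneic against syngeneic (16741 genes), 40 of 100 genes changed by log2 1 and 86 of 100 changed by log2 2 were called, with 4 false calls. Libraries that share prefix, treatment and number, taken as 1 recipient, correlated in their deviations from the group means by -0.40 to 0.73 (15 pairs, median 0.30). Alternatives covered filters, pseudocount, scaling, array weights, gene length, replicate blocks and single libraries left out. Figures used matplotlib 3.10.9.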

Additional observations from a re-analysis of the deposited data

Results flagged for a closer look

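A single library stood apart from its group, by Dixon's 95% criterion on groups of 4, in 4 of 32 groups tested (8 genes in 4 groups each); chance flags about 1 in 20 groups. In CD8 allogeneic cells the same library, JL027-1, was high for Psme2 (20187, the others 13602 to 14716), Psmb6 (12659, the others 9520 to 10010) and Psmb7 (7345, the others 4767 to 4982). In CD4 Treg-treated cells JL027-1 was low for Psmb7, at 5524, with the others at 7272 to 7474.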

How the results depend on the processing

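No direction reversed among the 70 log2 changes named, under the alternatives run for each; the recipient block was run for 1 of them and the replicate-label block for 12. Calls were lost for 34 of the 70 with the library mean as a covariate, 14 with centring, 12 with only the groups compared, 7 with quantile normalisation, 5 with 1 total and 4 with the length trend removed, for 2 of 12 (Psmb9 and Psmb6, CD4 Treg-treated against allogeneic) with the replicate-label block, and in 151 of 439 values with 1 library left out. The counts below, also those with 1 library left out, are given without the share of all genes called at each setting. Counts of members called, either direction, moved by over 1.5 times as follows. With array weights they were 6 for CD4 allogeneic against syngeneic, 31 for CD8 allogeneic against syngeneic, 43, 42 and 30 for CD4 allogeneic, CD4 syngeneic and Treg against day 0, 1 for Treg and 2 for CD8 against CD4 at day 0, 2 for CD8 against CD4 in allogeneic recipients and 13 for the CD8 minus CD4 difference; the weights were estimated with a warning that the convergence tolerance was not reached, so these counts are less certain. With only the groups compared they were 0 for CD4 allogeneic against syngeneic, 40, 0, 17 and 31 for CD4 allogeneic, CD4 syngeneic, CD8 syngeneic and Treg against day 0, 3 for CD8 against CD4 at day 0 and 2 in allogeneic recipients. Centring on library medians gave 14, 4 and 2 for CD4 allogeneic, CD4 syngeneic and Treg against day 0. Quantile normalisation gave 2 for CD4 allogeneic against syngeneic, 27 and 20 for CD4 and CD8 syngeneic against day 0 and 2 for the difference. Scaling to 1 total (chosen after seeing the data) gave 5 for CD4 allogeneic against syngeneic, 22 for CD8 syngeneic against day 0 and 1 for the difference. The library mean as a covariate (also chosen after seeing the data) gave 8 and 11 for CD4 and CD8 allogeneic against syngeneic, 0 for CD4 Treg-treated against allogeneic, 7, 9 and 11 for CD4 syngeneic, CD8 syngeneic and Treg against day 0, 21 for Treg against CD4 in Treg-treated recipients, 2 for CD8 against CD4 at day 0 and 4 for the difference. The cause was not tested. Of CD4 allogeneic against syngeneic, the split was 0 higher and 1 lower in the main analysis, 1 and 0 with centring, 2 and 3 with 1 total and 5 and 3 with the covariate; in Treg against day 0 it was 7 and 0 against 6 and 5 with the covariate, and in CD8 allogeneic against day 0 25 and 1 against 13 and 6.

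Scaling moved the median of all genes, for CD4 Treg-treated against allogeneic by 0.20 with centring and by -0.21 with 1 total; relative to that median the 5 immunoproteasome genes were at 0.85, 0.85 and 0.84. Leaving out 1 library gave counts of 0 to 1 for CD4 and 2 to 9 for CD8 allogeneic against syngeneic, 0 to 35 for CD4 Treg-treated against allogeneic, 5 to 25 for both CD4 and CD8 allogeneic, 3 to 23 for CD4 syngeneic, 2 to 41 for CD8 syngeneic and 1 to 4 for Treg against day 0, 25 to 44 for Treg against CD4 in Treg-treated recipients and 0 to 1 for CD8 against CD4 in allogeneic recipients; the rest stayed at 0. A lone day 0 library is assumed to vary like the other groups. The replicate label as a block gave 15 for CD4 Treg-treated against allogeneic; such pairs share only a number (correlation of deviations -0.35 to 0.42 over 8 pairs). The recipient as a replicate block gave 1 for CD8 against CD4 in allogeneic recipients and 0 for the difference, and the label prefix as a block changed no count by over 1.5 times. The unknown depth limits the rare members, Psma8 and Psmb11.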
